A study of Mus musculus with 6 samples.

Results

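The genes of the mouse *H2* complex, the major histocompatibility complex, were followed in whole lungs of wild-type and *Yap* mutant embryos at 12.5 *dpc*. Loci were taken by symbol, as every locus with a symbol starting *H2-* together with *B2m*, *Tap1*, *Tap2*, *Tapbp* and *Nlrc5*. This gave 45 of the 24402 loci in the authors' table, of which 43 lie on chromosome 17, *B2m* on chromosome 2 and *Nlrc5* on chromosome 8. The group was chosen because *H2-Q2* was much lower in *Yap* mutant lungs, so the values of this comparison are given as a description, without a test.

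The study set out to learn how loss of YAP from the lung epithelium alters gene expression when branching fails. Wild-type littermates (3 libraries) were compared with Yap-flox/flox; Shh-Cre/+ embryos (3 libraries), in which Cre made from the *Shh* locus deletes floxed *Yap* in epithelial cells and leaves it intact in the mesenchyme. The labels give the strain of all 6 samples as C57BL/6. No *H2* haplotype was read from these tables.

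The table gives a single value for each locus in each genotype, with the 3 libraries already combined by the authors. It was read as FPKM, a fragment count scaled by transcript length and by sequencing depth. The values come without the spread between libraries or their depth, so no error or interval is given. The authors' own p-values were not used. Fold changes are log2 of *Yap* mutant over wild type after 0.1 FPKM was added to each value, which understates the change of low genes. A locus is counted as lower or higher when it has a mean of at least 1 FPKM over the genotypes and differs by at least 1.5-fold (0.58 on the log2 scale). Among the 12716 loci that reached this mean, 3.3% were lower and 4.44% were higher, and their median log2 change was -0.01.

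*Yap1* itself had 76.1 FPKM in wild-type and 65.6 FPKM in *Yap* mutant lungs, a value that covers the whole locus and cells outside the epithelium. All 10 lung markers examined had a mean of at least 1 FPKM, among them *Nkx2-1* (61.9 and 35.9 FPKM) and *Tbx4* (54.3 and 59.2 FPKM). Of the 10, 5 were lower and 2 were higher by at least 1.5-fold. *Shh*, where the Cre is inserted, had 15.6 and 2.31 FPKM.

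Class I molecules consist of a heavy chain and β2-microglobulin, and they show peptides from inside the cell to T cells and natural killer cells. Peptides enter the endoplasmic reticulum through the TAP transporter and are loaded with the help of tapasin. *H2-K1* and *H2-D1* encode classical heavy chains, while the *H2-Q*, *H2-T* and *H2-M* regions encode non-classical ones with narrower expression or other ligands. Class II molecules present peptides from outside the cell and are made mainly by professional antigen-presenting cells. Nearly all of these genes lie close together and vary greatly between mouse strains.

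The members with the largest differences between the genotypes were in the *H2-Q* region. *H2-Q1*, *H2-Q2*, *H2-Q4* and *H2-Q7* were all lower in *Yap* mutant lungs, while the classical class I genes, *B2m* and *Tapbp* had somewhat higher values. Of the 45 loci, 13 had a mean of at least 1 FPKM. Of these 13, 3 were lower by at least 1.5-fold (*H2-Q2*, *H2-Q4* and *H2-Q7*) beside 3.3% of all loci, and 0 were higher beside 4.44%. At a limit of 2-fold, 2 of the 13 were lower (*H2-Q2* and *H2-Q7*) beside 1.28% of all loci, and 0 were higher beside 2.15%. Counting differences of any size, 6 of the 13 had a lower value in the mutants, beside 51.8% of all loci. Because the group was chosen from this same comparison, nothing is read from these counts. *H2-Q2* and *H2-Q7* have a mean of at least 1 FPKM only through their wild-type value, and *H2-Q1*, with a mean of 0.961 FPKM, was just under it. The median log2 change of the 13 loci was 0.08.

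The upstream sequences of *H2-Q* and classical genes are shown because these genes of one family differed in direction. *H2-Q1* had no RefSeq window and is not among them. Each window holds the 250 bases before the RefSeq start on GRCm38.p6, written 5′ to 3′ on the strand of the gene. Capitals mark 3 motifs of class I promoters, searched on both strands: GGGGATTCCCC, the NF-κB site of enhancer A, AGTTTCACTTCT, an interferon-stimulated response element, and CCAAT, the Y box, which reads ATTGG on the other strand.
*H2-D1* (chr17:35262844-35263093, plus strand): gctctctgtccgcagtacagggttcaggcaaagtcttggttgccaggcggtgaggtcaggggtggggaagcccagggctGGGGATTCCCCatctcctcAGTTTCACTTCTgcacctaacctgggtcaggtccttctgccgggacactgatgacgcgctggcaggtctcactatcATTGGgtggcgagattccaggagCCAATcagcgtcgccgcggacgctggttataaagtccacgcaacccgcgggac
*H2-K1* (chr17:34000348-34000597, minus strand): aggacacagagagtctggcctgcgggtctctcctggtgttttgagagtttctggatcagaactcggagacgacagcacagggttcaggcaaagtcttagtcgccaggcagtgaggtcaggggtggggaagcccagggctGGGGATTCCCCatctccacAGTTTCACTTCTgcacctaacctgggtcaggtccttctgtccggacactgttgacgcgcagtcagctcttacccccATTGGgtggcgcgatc
*H2-Q2* (chr17:35342057-35342306, plus strand): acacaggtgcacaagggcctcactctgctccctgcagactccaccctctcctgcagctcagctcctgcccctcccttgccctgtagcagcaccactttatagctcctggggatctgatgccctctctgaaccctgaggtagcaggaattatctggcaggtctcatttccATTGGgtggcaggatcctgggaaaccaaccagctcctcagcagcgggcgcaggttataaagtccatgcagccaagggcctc
*H2-Q4* (chr17:35379367-35379616, plus strand): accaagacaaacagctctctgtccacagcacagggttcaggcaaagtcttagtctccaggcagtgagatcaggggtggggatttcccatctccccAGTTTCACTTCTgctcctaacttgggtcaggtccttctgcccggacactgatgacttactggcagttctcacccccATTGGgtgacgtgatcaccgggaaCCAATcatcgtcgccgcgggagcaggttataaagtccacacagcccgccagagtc
*H2-Q7* (chr17:35438905-35439154, plus strand): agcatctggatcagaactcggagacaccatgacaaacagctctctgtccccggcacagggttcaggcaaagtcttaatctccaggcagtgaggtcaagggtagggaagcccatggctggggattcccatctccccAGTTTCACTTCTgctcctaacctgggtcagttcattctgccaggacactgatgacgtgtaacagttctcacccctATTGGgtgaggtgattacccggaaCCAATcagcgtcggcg

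The letters of the enhancer A site and of the response element were read from the *H2-D1* window after the sequences were seen, so their match there follows from that choice. Related genes of the family can hold the same letters as copies. Nothing is therefore read from the number of members with a match beside the share of all windows. Members were searched in 1 window per gene, although a gene can have several, as *H2-K1* with 2. The enhancer A letters were found in *H2-D1* and *H2-K1*. Over all 32851 windows in the RefSeq table, 10 had a match (0.0304%). Only exact matches were counted. *H2-Q4* (ggggatttccc) and *H2-Q7* (ggggattccca) hold nearly the same letters ahead of the response element. The lack of an exact match there does not show that the site is absent. The response element was found in *H2-D1*, *H2-K1*, *H2-Q4*, *H2-Q7* and *H2-Q10*, and 9 of all windows had a match (0.0274%). All 5 windows printed hold a Y box, as do 29 of the 33 member genes in the table and 33.8% of all windows. *H2-Q2* holds the Y box alone. GGAATG, the TEAD-binding site that the study searched for, occurred in 12.6% of all windows and in 1 of the 33 member genes, *H2-M2*, and in none (0) of the 5 windows printed. These matches describe letters in short windows and do not show binding. The study's own search used longer promoter windows, assessed conservation and was joined with YAP ChIP-Seq peaks, so it differs from this count. Aligned end to end, the *H2-Q2* window was 57.9% identical to that of *H2-Q4*, 54.7% to that of *H2-D1* and 44.5% to that of *H2-K1*. *H2-Q4* and *H2-D1* were 75.9% identical, while the classical genes *H2-D1* and *H2-K1* were 54.8% identical. The ATTGG letters begin 81 bases before the start in *H2-Q2* and 76 in *H2-D1*, but 40 in *H2-Q7* and 16 in *H2-K1*. The windows are thus offset by the annotated starts, which can lower end-to-end identity. The *H2-Q2* window lies inside the locus that the authors' table gives for the gene, since that locus starts at 35341912, ahead of the RefSeq start.

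In the *H2-Q* region, *H2-Q1* (chr17:35320368-35325099) had 1.76 FPKM in wild-type and 0.166 FPKM in *Yap* mutant lungs. It was 6.97-fold lower in the mutants after the pseudocount, a log2 change of -2.80. *H2-Q2* (chr17:35341912-35345883), the next locus along the chromosome, had 2.64 FPKM in wild-type and 0.359 FPKM in *Yap* mutant lungs. Its log2 change was -2.58, or 5.97-fold lower. The size of these changes depends on the pseudocount: with 1 FPKM the log2 change was -1.24 for *H2-Q1* and -1.42 for *H2-Q2*, and with 0.01 FPKM it was -3.32 and -2.84. Of the 12716 loci above the required mean, 19 had a lower log2 change than *H2-Q2*. Because the group was chosen for the low value of *H2-Q2* in the mutants, nothing is read from this rank. Both genes encode non-classical heavy chains, and both were present at a low level in wild-type lungs, where *H2-Q2* ranked 10859 of the 24402 loci.

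*H2-Q4* (chr17:35379606-35385596) was the most abundant locus of the region. Its value was 13.1 FPKM in wild-type and 6.57 FPKM in *Yap* mutant lungs, a log2 change of -0.99. *H2-Q7* (chr17:35439155-35443773), which encodes a Qa-2 antigen, had 1.499 and 0.641 FPKM, a log2 change of -1.11. The 2 loci at the end of the region nearer *H2-D1* differed by more than *H2-Q4* and *H2-Q7*. *H2-Q5* and *H2-Q8* lie between *H2-Q4* and *H2-Q7*, but they were low in both genotypes, with 0.267 and 0.365 FPKM for *H2-Q5* and 0.115 and 0.0896 FPKM for *H2-Q8*. The locus named *H2-Q8* overlaps the gene that GENCODE calls *H2-Q6*. *H2-Q10*, known for a secreted heavy chain made in liver, had 0.0356 and 0.0118 FPKM.

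**Figure D1:**
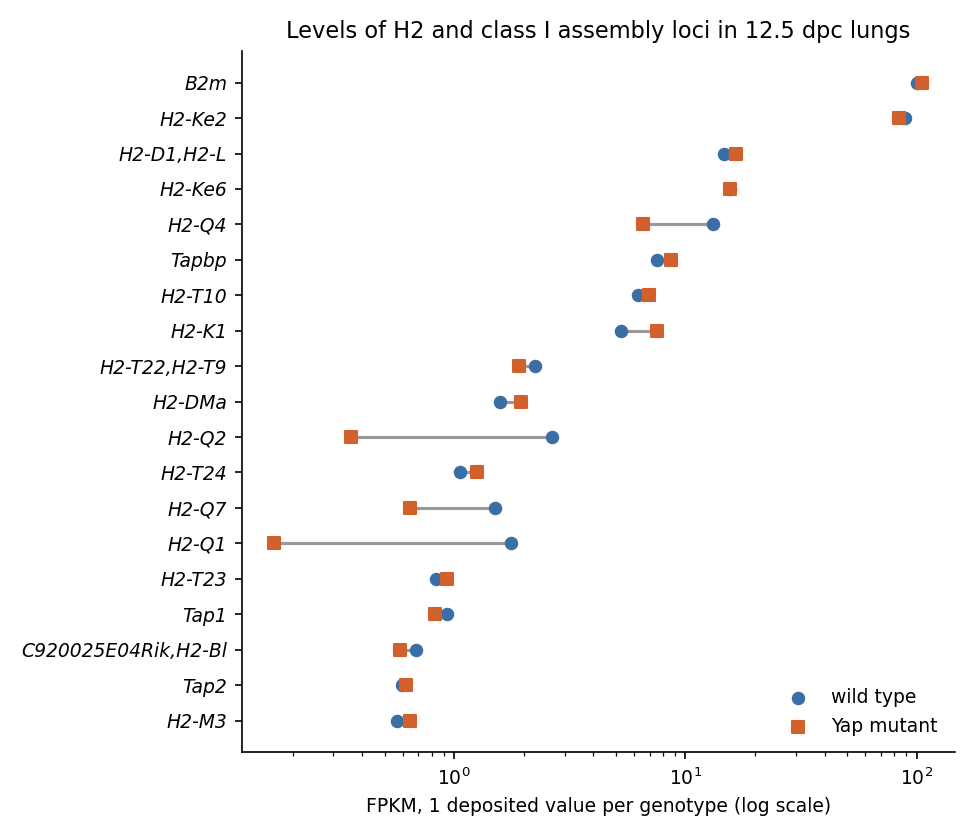
FPKM (x axis, log scale) of the 19 loci that reached 0.5 FPKM in either genotype, ordered by mean, with 1 deposited value per genotype and a line joining wild type (circles) to *Yap* mutant (squares). The long lines are those of *H2-Q1*, *H2-Q2*, *H2-Q4* and *H2-Q7*, with the mutant value to the left, while *B2m* and *H2-Ke2* lie near 100 FPKM with little distance between genotypes.

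The plot of levels shows the wide range of the family and which members separate. By the wild-type value, the order from the top was *B2m*, *H2-Ke2*, *H2-Ke6*, the joint locus of *H2-D1* and *H2-L*, *H2-Q4*, *Tapbp*, *H2-T10* and *H2-K1*. Whether neighbours in this order differ beyond the spread between libraries cannot be told from 1 value per genotype.

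The classical heavy chains were not lower in the mutants. The locus of *H2-D1* and *H2-L* (chr17:35263094-35267497) had 14.6 FPKM in wild-type and 16.6 FPKM in *Yap* mutant lungs, a log2 change of 0.19. *H2-K1* (chr17:33996012-34000333) had 5.28 and 7.57 FPKM, a log2 change of 0.51. It is among the loci that the authors list as changed. Among the 13 loci with the required mean, *H2-K1* was the nearest to the 1.5-fold limit of those inside it, and *H2-Q4* of those past it. Of the members below that mean, *H2-DMb2* (0.54) lay just inside the limit and *H2-Aa* (-0.60) just past it. The classical loci summed to 19.9 FPKM in wild-type and 24.2 FPKM in *Yap* mutant lungs, whereas the 7 *H2-Q* loci summed to 19.5 and 8.20 FPKM. The *H2-Q* loci thereby made up 37.9% of the FPKM over all 28 class I heavy chain loci in wild-type lungs and 18.2% in the mutants. The 21 other heavy chain loci summed to 31.8 and 36.9 FPKM.

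In the *H2-T* region, *H2-T10* had 6.23 FPKM in wild-type and 6.94 FPKM in *Yap* mutant lungs, and the joint locus of *H2-T22* and *H2-T9* had 2.23 and 1.91 FPKM. T10 and T22 are ligands of some γδ T cells. *H2-T24* had 1.06 and 1.25 FPKM, and *H2-T23*, which encodes Qa-1, the ligand of the CD94 and NKG2 receptors, had 0.831 and 0.932 FPKM. The joint locus of *C920025E04Rik* and *H2-Bl* had 0.683 and 0.584 FPKM. All 5 of these loci carry the same coordinates in the table (chr17:35994384-36121448), so their values cannot be placed more finely there. *H2-T3*, the gene of the thymus leukaemia antigen, had 0.0147 FPKM in wild-type lungs and was listed at 0 in the mutants.

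Of the 12 *H2-M* loci, 9 were listed at 0 in both genotypes, among them *H2-M10.1*, *H2-M10.3* to *H2-M10.6* and *H2-M2*. The *H2-M10* genes are known from neurons of the vomeronasal organ. *H2-M3*, whose product presents N-formylated peptides, had 0.567 FPKM in wild-type and 0.644 FPKM in *Yap* mutant lungs. *H2-M5* had 0.244 and 0.308 FPKM. *H2-K2*, a pseudogene beside *H2-K1*, had 0.0634 and 0.101 FPKM.

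The genes for assembly of class I molecules were nearly level. *B2m*, which encodes β2-microglobulin, had 100.1 FPKM in wild-type and 105.8 FPKM in *Yap* mutant lungs, a log2 change of 0.08. Its locus (chr2:122120108-122186189) reaches over 3 protein-coding genes of GENCODE, *Patl2*, *B2m* and *Trim69*. *Tapbp*, the tapasin gene, had 7.56 and 8.66 FPKM, a log2 change of 0.19. The transporter genes were low in both, with 0.928 and 0.828 FPKM for *Tap1* and 0.594 and 0.621 FPKM for *Tap2*. *Nlrc5*, the transactivator of class I genes, was at 0.0196 and 0.0290 FPKM. The summed heavy chains came to 51.2% of the *B2m* value in wild-type and to 42.6% in *Yap* mutant lungs.

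Class II genes were near the floor of the table. Of 10 class II loci, 1 had a mean of at least 1 FPKM. This was *H2-DMa*, which encodes a chain of the peptide exchanger of class II molecules, at 1.58 FPKM in wild-type and 1.94 FPKM in *Yap* mutant lungs. The chains of the I-A molecule were low, *H2-Aa* with 0.141 and 0.0592 FPKM and *H2-Ab1* with 0.197 and 0.254 FPKM. *H2-Eb1* had 0.161 and 0.141 FPKM, and *H2-Ea-ps*, which C57BL/6 mice do not express as a protein, was listed at 0 in both. *H2-DMb1*, *H2-DMb2* and *H2-Oa* had between 0.168 and 0.406 FPKM in either genotype. *H2-Eb2* and *H2-Ob* were at most 0.0183 FPKM.

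*H2-Ke2* and *H2-Ke6* carry the prefix but present no antigen. *H2-Ke2*, which GENCODE lists as the prefoldin subunit gene *Pfdn6*, had 89.4 FPKM in wild-type and 83.9 FPKM in *Yap* mutant lungs. *H2-Ke6*, a dehydrogenase gene, had 15.6 FPKM in both.

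**Figure D2:**
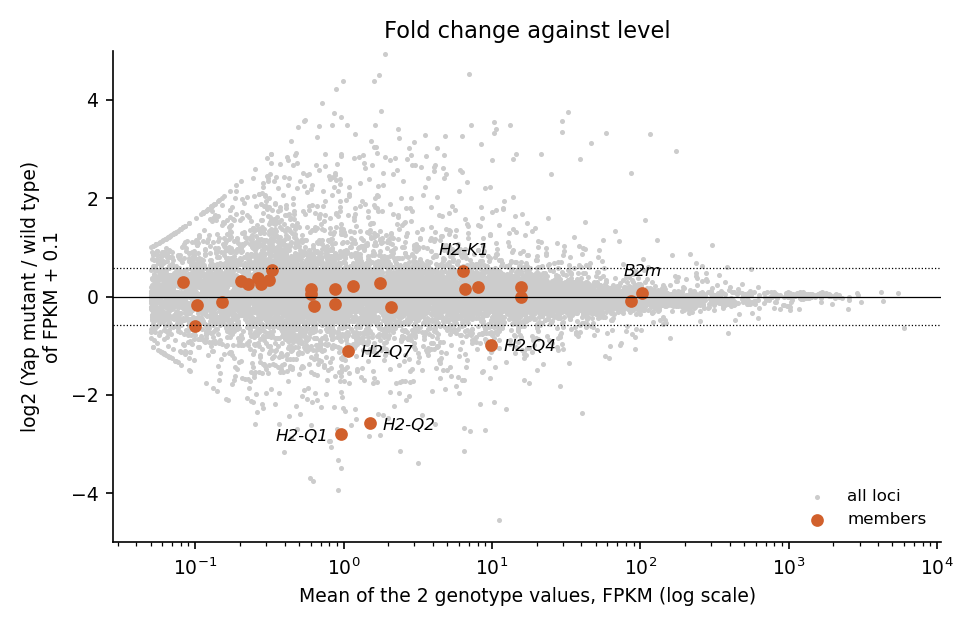
Log2 change of FPKM + 0.1 (y axis) against the mean of the genotype values (x axis, FPKM, log scale) for the 17260 loci whose mean reached 0.05 FPKM (grey) and the 29 members among them (orange), with dotted lines at 1.5-fold. *H2-Q1*, *H2-Q2*, *H2-Q4* and *H2-Q7* lie below the lower line, *H2-Aa* lies just below it at a low mean, and *H2-DMb2* and *H2-K1* lie just inside the upper one; 24 loci lie beyond the axis.

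Grey points spread widely at low mean values in that plot of change against level, and *H2-Q1*, *H2-Q2* and *H2-Q7* sit near 1 FPKM. *H2-Q4* lies further right, at a mean of 9.86 FPKM. Among the 32 members with a mean under 1 FPKM, 10 were listed at 0 in both genotypes. Of the other 22, 8 were lower and 14 were higher, with log2 changes between -0.60 (*H2-Aa*) and 0.54 (*H2-DMb2*) once *H2-Q1* is set aside. Directions over all loci under 1 FPKM were not counted, so nothing is read from these numbers.

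*H2-Q1* to *H2-Q7* span 123.4 kb, which holds 6 loci of the table, all of them *H2-Q* loci. The nearest loci on either side that reached 1 FPKM differed by less than 1.5-fold. Between *H2-D1* and *H2-Q1* lies a locus without a symbol, at 22.999 and 29.3 FPKM (0.35). On the other side *Tcf19* had 23.9 and 22.04 FPKM (-0.12) and *Cchcr1* had 7.67 and 6.71 FPKM (-0.19). Between the first and the last *H2* locus, a stretch of 3.54 Mb on chromosome 17, 80 loci outside the family reached a mean of 1 FPKM. Of these, 1 was lower and 1 was higher by at least 1.5-fold (1.25% each), beside 3.49% lower and 3.86% higher among 544 loci on the rest of chromosome 17. The lower one was *Sfta2*, a surfactant-associated gene of lung epithelium, at 13.0 FPKM in wild-type and 4.47 FPKM in *Yap* mutant lungs (-1.52). The higher one was *Lst1*, a gene of leukocytes, at 1.62 and 3.36 FPKM (1.01).

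**Figure D3:**
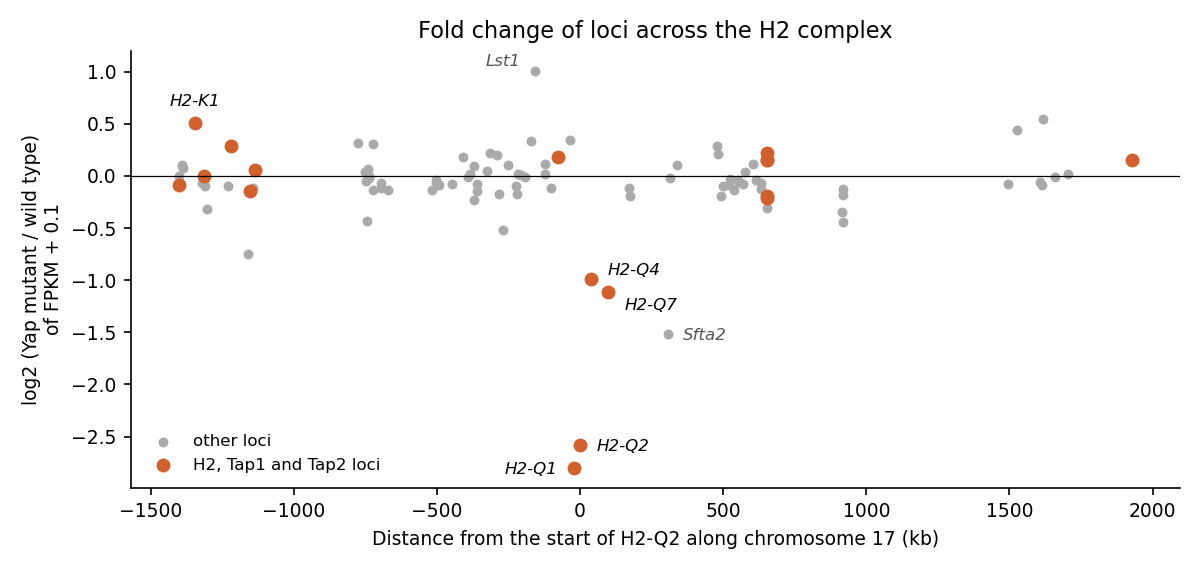
Log2 change of FPKM + 0.1 (y axis) by distance from the start of *H2-Q2* along chromosome 17 (x axis, kb), for 17 member loci (orange) and 84 other loci (grey) with a mean of at least 0.5 FPKM. *H2-Q1*, *H2-Q2*, *H2-Q4* and *H2-Q7* form a group at the centre below -0.9, and of the other loci drawn only *Sfta2* lies below that value.

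In the plot along the complex, the 4 *H2-Q* loci lie below the loci that flank them. These genes are copies of each other, so the values of single loci are uncertain where reads can match several. In GENCODE transcripts, 22.9% of the 50-base windows of *H2-Q1*, 24.3% of those of *H2-Q4* and 34.9% of those of *H2-Q7* occurred in a transcript of another gene. For *H2-Q2* it was 8.74% and for *H2-K1* 8.79%. The gene sharing the most windows with *H2-Q1* was *H2-Q2*, with 13.9%, and with *H2-Q7* it was *H2-Q6*, with 19.3%. With windows of 100 bases, the shares were 13.1% for *H2-Q1*, 2.66% for *H2-Q4*, 16.4% for *H2-Q7* and 0% for *H2-Q2* and *H2-K1*. Windows came only from the longest protein-coding transcript of each gene and were searched in all transcripts of other genes. At 100 bases, 5.51% of the *H2-Q1* windows occurred in a transcript of *H2-Q2*. The shares for *H2-Q2* therefore leave out its other transcripts and can understate what it shares with *H2-Q1*. For *H2-T10* and *H2-T22*, 42.9% and 44.7% of 50-base windows occurred in a transcript of another gene. Of the *H2-T10* windows, 40.2% occurred in *H2-T22*, and 37.9% of the *H2-T22* windows occurred in *H2-T10*. No source used here states the read length or how reads with several matches were treated.

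The wider pathway was examined with lists of genes. Of 11 genes for peptide supply and folding in the class I pathway, 9 had a mean of at least 1 FPKM, of which 4 were lower, 5 were higher and 0 passed 1.5-fold in either direction (median log2 change 0.01). *Psmb9*, an immunoproteasome subunit gene inside the complex, had 1.08 FPKM in wild-type and 0.597 FPKM in *Yap* mutant lungs, below the required mean. Its neighbour *Psmb8* had 0.810 and 0.741 FPKM, and *Erap1*, which trims peptides, had 4.47 and 5.62 FPKM.

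Among 10 transcription regulators of these genes with a mean of at least 1 FPKM, 7 were lower, 3 were higher and 0 passed 1.5-fold (median -0.06). They include the subunits of RFX and NF-Y, factors known from MHC promoters in general, whose binding was not measured here, and *Irf1*, which had 6.28 FPKM in wild-type and 6.39 FPKM in *Yap* mutant lungs. *Ciita*, the transactivator of class II genes, was at 0.0114 and 0.00863 FPKM. Of the 6 class II pathway genes with a mean of at least 1 FPKM, 2 were lower, 4 were higher and 0 passed 1.5-fold. The invariant chain gene *Cd74* was low, at 0.878 and 0.599 FPKM.

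Of 29 interferon response genes, 9 had a mean of at least 1 FPKM, of which 1 was lower and 1 was higher by at least 1.5-fold (median 0.01). *Iigp1*, an interferon-inducible GTPase gene, had 8.23 FPKM in wild-type and 4.30 FPKM in *Yap* mutant lungs, a log2 change of -0.92. *Irgm1*, of the same family of GTPases, had 1.66 and 2.58 FPKM, a log2 change of 0.60. Larger differences were found below the required mean, where *Gbp2* had 1.47 and 0.442 FPKM (-1.53) and *Usp18* had 0.686 and 0.224 FPKM (-1.28). In the other direction, *Cxcl10* had 0.0210 and 0.254 FPKM (1.55) and *Ifi44* had 0.125 and 0.377 FPKM (1.09). *Bst2* (8.72 and 8.79 FPKM) and *Ifitm3* (28.2 and 28.8 FPKM) had nearly equal values.

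**Figure D4:**
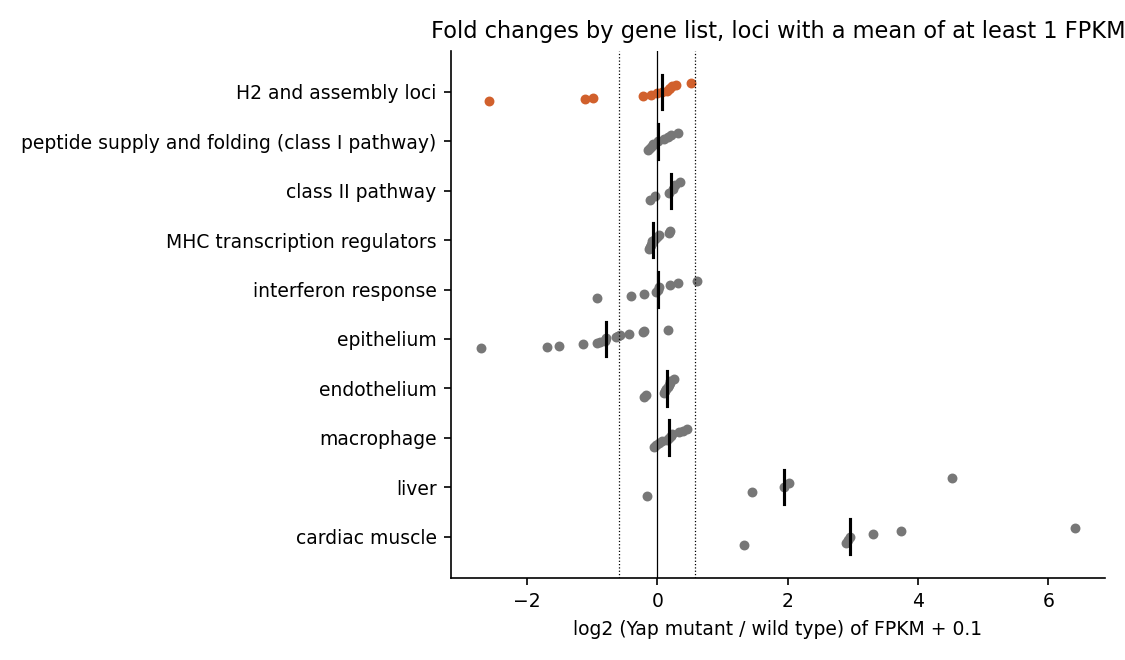
Log2 change of FPKM + 0.1 (x axis) of the loci reaching a mean of 1 FPKM in the family (orange) and in 9 gene lists (grey), with a black bar at each median and dotted lines at 1.5-fold. The medians of the family and the 4 pathway lists lie between -0.06 and 0.21, that of the epithelium at -0.79, and those of liver and cardiac muscle at 1.94 and 2.96.

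Markers of cell types differed between the genotypes in the same lungs, as the plot by list shows. In whole-lung RNA, fewer cells of a type and less RNA per cell cannot be told apart. Of 16 epithelial markers, 3 of which are also among the lung markers, 15 were lower and 11 were lower by at least 1.5-fold, and their summed level was 453.8 FPKM in wild-type and 289.5 FPKM in *Yap* mutant lungs. *Cldn6* had 97.97 and 64.7 FPKM and *Epcam* had 74.9 and 55.6 FPKM. Of 8 cardiac muscle markers, 7 had a mean of at least 1 FPKM and all 7 of these were higher by at least 1.5-fold, and the list summed to 98.6 and 669.2 FPKM. The 10 liver markers summed to 14.3 and 60.7 FPKM. Of the 5 with a mean of at least 1 FPKM, 4 were higher by at least 1.5-fold: *Afp*, *Apoa1*, *Trf* and *Ttr* (0.492 and 13.5 FPKM). The other, *Alb*, had 1.28 and 1.14 FPKM. The part of the epithelial, cardiac and liver genes in the lower *H2-Q* values was not tested.

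Endothelial and macrophage markers had slightly higher sums in the mutants. The 10 endothelial markers summed to 298.4 FPKM in wild-type and 321.3 FPKM in *Yap* mutant lungs, and the 14 macrophage markers with a locus, of 15 listed, to 73.7 and 81.0 FPKM. None (0) of the loci of either list that reached 1 FPKM passed 1.5-fold. Among lymphoid and dendritic markers, 11 of 12 had a mean under 1 FPKM, and *Cd3e*, *Ncr1* and *Cd8b1* were listed at 0 in both genotypes.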

How the data were processed

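Total RNA of 6 whole-lung samples at 12.5 *dpc* was sequenced as stranded paired-end libraries, 3 per genotype. The submitters' processing notes name TopHat, Cuffdiff and mm10, without versions. The authors deposited 2 tables with 1 FPKM value per genotype and locus, one of 24402 loci and one of the 2395 they list as changed. The unit was inferred from the Cuffdiff layout. The deposited log2 fold change and p-value columns hold the authors' own comparison and were not used, and no column belonged to other samples. Depth per library is unknown.

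From these values, log2 changes were computed after 0.1 FPKM was added, with a required mean of 1 FPKM and a limit of 1.5-fold. With 1 value per genotype no test was made. Table starts count from 0, so 1 was added. Of 21198 loci with 1 symbol in GENCODE vM21 (GRCm38, the build called mm10), 98.7% overlapped the gene of that symbol. Promoter windows came from RefSeq (33 of the 45 loci matched), and windows shared between transcripts from the longest protein-coding GENCODE transcript of each gene. The planned comparison of protein sequences was not made. Members and lists were chosen with earlier results of these data known. Named are the members with the required mean, the pathway list genes and neighbours with that mean that passed 1.5-fold, and some abundant markers. *H2-Q1*, members with a mean under 1 FPKM, the nearest neighbours of the *H2-Q* loci and other list genes were named after their values were seen. The fold count was run on simulated data with changes of at least 2-fold and little noise. This checks the code and says nothing on the reliability of the calls reported here. Alternatives were other pseudocounts, mean filters and limits, scaling and loci with a single symbol. The second table was also read, but it repeats the authors' values for the loci it lists. The work used Python 3.11.15, numpy 2.4.6, pandas 2.3.3, biopython 1.88 and matplotlib 3.10.9.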

Additional observations from a re-analysis of the deposited data

How the results depend on the processing

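The log2 change of *H2-Q2* was -1.42 with a pseudocount of 1 FPKM and -2.84 with 0.01 FPKM, beside -2.58. With no filter on low values, 5 of 45 members were lower by at least 1.5-fold (*H2-Q1* and *H2-Aa* in addition) beside 4.16% of all loci. In that setting 0 members were higher, beside 6.36%. With a mean of at least 5 FPKM, 1 of 8 members was lower (*H2-Q4*), because fewer loci then count. That filter also moved the shares of all loci to 1.91% lower and 2.27% higher, and a limit of 2-fold moved them to 1.28% and 2.15%. With that limit *H2-Q4* no longer counted, which left 2 members lower. For the 13 other named members, 49 of 52 values under the other pseudocounts, centring and rescaling moved by at most 0.25 on the log2 scale, and the filters cannot alter a locus's own value. The exceptions were *H2-Q1* (-1.24 and -3.32) and *H2-Q7* (-0.61) under other pseudocounts. The second table lists 5 members, *H2-Q1*, *H2-Q2*, *H2-Q4*, *H2-Q7* and *H2-K1*, the last of which was higher in the mutants. It gave the same values within 1%. Since it holds the authors' values of the same comparison, this is no separate check. *H2-Ke6*, at -0.00268, was at 0.00341 after centring on the median of all loci and at 0.0411 after rescaling to equal sums. No paired analysis was possible because the tables hold 1 value per genotype, and for the same reason no replicate could be left out. Depth per library is unknown, so the precision of low values such as those of *H2-Q1* and *H2-Q2* cannot be given.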
